A study of Bos taurus with 30 samples.

Results

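The matrix metalloproteinases MMP1, MMP2, MMP3, MMP9, MMP11, MMP13 and MMP14 and the tissue inhibitors of metalloproteinases TIMP2 and TIMP3 were followed through 30 libraries of cultured cow endometrium. The set was chosen by gene symbol from a list of 10 names, of which 9 (7 MMP and 2 TIMP genes) were matched by symbol among the 27607 genes counted. The list was drawn up with earlier results of these data known. TIMP1, the other name on the list, was not analysed here. Identifiers were ENSBTAG00000048029 for MMP1, ENSBTAG00000015059 for MMP13, ENSBTAG00000037768 for MMP3, ENSBTAG00000006108 for MMP11 and ENSBTAG00000019267 for MMP2. Those of the remaining genes were ENSBTAG00000020676 for MMP9, ENSBTAG00000014824 for MMP14, ENSBTAG00000010899 for TIMP2 and ENSBTAG00000020638 for TIMP3.

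MMPs are zinc-dependent proteases that cut collagens, proteoglycans and other proteins of the extracellular matrix, and most are secreted as inactive proenzymes that need a cut in their prodomain. TIMPs bind the active site of MMPs and block it. The balance of both is known for its part in endometrial remodelling over the oestrous cycle and in the preparation of the uterus for attachment of the conceptus.

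The donors were cows (Bos taurus) that were not pregnant and were early in the luteal phase. Epithelial and stromal cells were taken from their endometrium. They were grown on the 2 faces of a porous membrane in a microfluidic device and kept under flow for 72 hours. In the glucose experiment the medium held 5 mM glucose (control) or 50 mM glucose, and in the insulin experiment it held vehicle, 1 ng/mL insulin or 10 ng/mL insulin, all with 5 mM glucose. Each of the 10 groups had 3 libraries, called biological replicates in the study, and no group carried a genetic change. The upper chamber gave the epithelial and the lower chamber the stromal-enriched cells, from devices in which both cell types were present, after separation by sieving and differential plating. The glucose and insulin experiments shared no library, so a difference in level between them cannot be told apart from a difference between experiments.

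Total counts per library ran from 8826470.0 to 16647700.0, and levels are given as counts scaled to that total, on the usual CPM scale. A count of 3 equalled 0.18 to 0.34 CPM. Genes were not compared with each other in level, because counts also scale with transcript length. In each comparison an edgeR quasi-likelihood test with Benjamini-Hochberg adjustment over all genes was fitted with the replicate number as a block, and a gene was called at an adjusted p under 0.05 with a log2 fold change beyond 0.1 either way. A gene passed the unadjusted threshold at a p under 0.05 before adjustment with the same limit on the fold change. The SE given with a fold change was its size divided by the square root of edgeR's F statistic, and is not a separate estimate. The labelled cell types were checked against marker lists. In epithelial libraries the median of 21 epithelial markers such as KRT18 and CDH1 was 77.4% to 135% of the epithelial control (5 mM glucose or vehicle), and the median of 20 stromal markers such as DCN and PDGFRA was 1.87% to 13.1% of the stromal control. CDH3 of the epithelial list went the other way, with medians of 2.95 CPM in epithelial and 4.04 CPM in stromal libraries. S100A4 of the stromal list was close in both (241 and 321 CPM). Of the 21 epithelial markers 18 were called higher in epithelial cells at 5 mM glucose, 2 at 50 mM glucose and 20 in each insulin condition. At both glucose levels 1 was called higher in stromal cells. Of the 20 stromal markers 19 to 20 were called higher in stromal cells. Stromal libraries held 47.2% to 114% of the stromal control for the stromal markers. Their epithelial markers reached 0.0143% to 6.96% of the epithelial control at 5 mM glucose, 4.95% to 60.2% at 50 mM glucose and 0% to 3.71% in the insulin experiment. Replicate 3 of the stromal 50 mM group held the 60.2% and stood apart from the other stromal libraries. The epithelial library of replicate 2 at 5 mM glucose also stood apart, with a Pearson r of log2 levels of 0.889 and 0.90 with replicates 1 and 3, against 0.956 between those, and with epithelial markers that summed to 17085 CPM against 8530.3 and 8343 CPM. In libraries of bulk RNA, fewer cells of a type and less RNA per cell cannot be told apart.

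Most of the transcripts were called between the cell types, as were 17.6% (50 mM glucose) to 59.4% (1 ng/mL insulin) of all protein-coding genes per condition. The share of all genes called the same way in all 5 conditions is not given here. MMP2, MMP14, TIMP2 and TIMP3 were higher in stromal than in epithelial cells under each of the 5 conditions, by 7.26 to 17.3 times for MMP2, 2.33 to 2.63 times for MMP14, 4.52 to 8.2 times for TIMP2 and 3.45 to 7.93 times for TIMP3 in the ratio of group means. MMP13 and MMP9 were called higher in epithelial cells under 4 of the 5 conditions and MMP1 under 2. MMP3 was called higher in stromal cells at 5 mM glucose, and MMP11 was called under none. Against this, a single transcript was called in the glucose and insulin comparisons, MMP13, lower in epithelial cells with 10 ng/mL insulin. That call was made in 4 of 8 alternative fits.

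**Figure D1:**
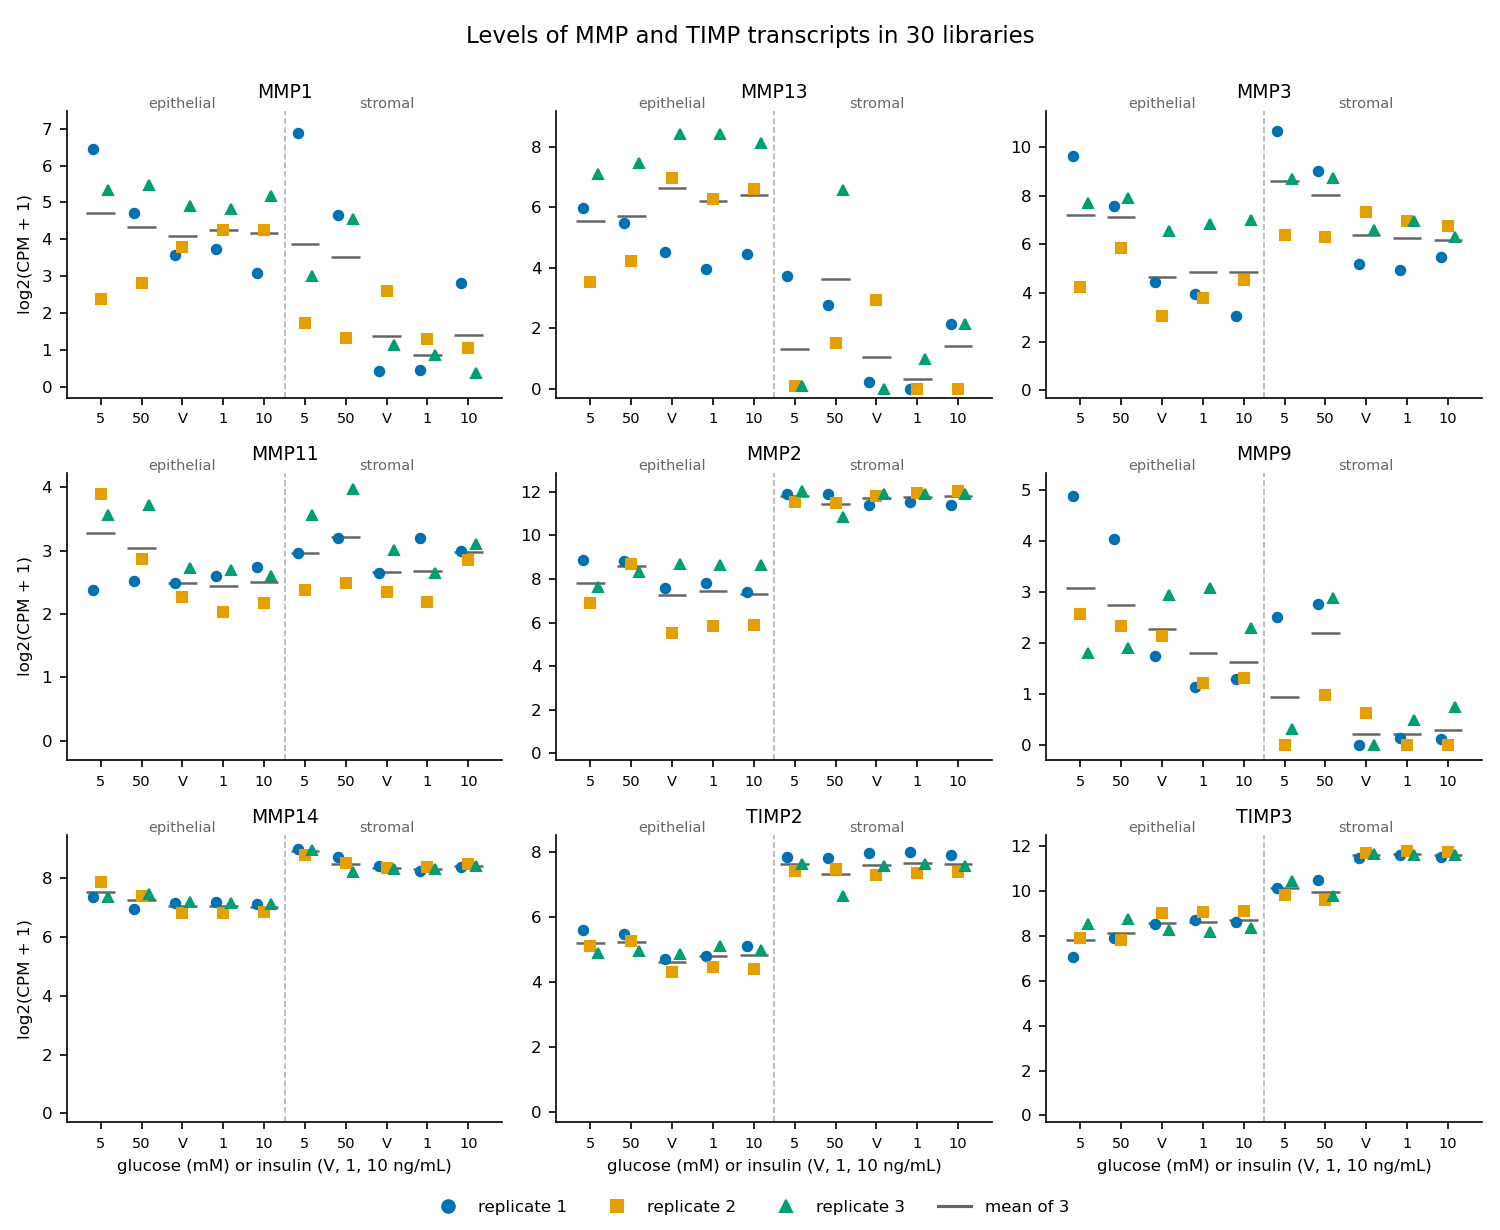
Level of each of the 9 transcripts as log2(CPM + 1) in 30 libraries. Each point is a library, coloured by replicate number, the grey bar is the mean of the 3 libraries of a group, and the dashed line parts epithelial (left) from stromal (right) libraries at 5 or 50 mM glucose and at insulin vehicle (V), 1 or 10 ng/mL. All stromal points of MMP2, MMP14, TIMP2 and TIMP3 sit above all epithelial points, and epithelial MMP13 keeps the same order of replicates at every insulin dose.

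Counts of called transcripts in the 5 cell type comparisons were read against all protein-coding genes. At 5 mM glucose 6 of 9 transcripts were called, 1 with the epithelial and 5 with the stromal side higher, where 21.5% of protein-coding genes were called (10.8% with the epithelial side and 10.7% with the stromal side higher). At 50 mM glucose 5 of 9 were called, 1 higher in epithelial and 4 in stromal cells, against 17.6% of all genes (6.57% and 11%). With insulin vehicle 7 of 9 were called, 3 higher in epithelial and 4 in stromal cells, against 55.9% (28.2% and 27.8%). The count was again 7 of 9 (3 and 4) with 1 ng/mL insulin, against 59.4% (29.9% and 29.5%). It was 6 of 9 (2 and 4) with 10 ng/mL insulin, against 54.9% (27.3% and 27.6%). The median log2 fold change of the 9 transcripts, epithelial over stromal, lay between -1.62 and -1.05 in these comparisons, and that of all protein-coding genes between -0.01 and 0.03. At 50 mM glucose the count depended on replicate 1, without which none of the 9 transcripts and none of 13351 protein-coding genes was called, and with vehicle 4 of 9 were called without replicate 1, where 5069 of 12920 protein-coding genes were called. Whether epithelial and stromal libraries of one replicate number came from the same animals is not given in the sources used here.

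Of the collagenases, which open the triple helix of fibrillar collagen, MMP13 (collagenase 3) showed the widest contrast between the cell types. Epithelial libraries of replicates 1, 2 and 3 held 62.1, 10.6 and 135 CPM at 5 mM and 43.5, 17.7 and 177 CPM at 50 mM glucose. In the insulin experiment they held 21.7, 123 and 342 CPM with vehicle, 14.5, 76.5 and 339 CPM with 1 ng/mL and 21.2, 95.5 and 277 CPM with 10 ng/mL insulin. Replicate 3 was the highest in each of these 5 groups, and the lowest was replicate 2 in the glucose experiment and replicate 1 in the insulin experiment. Most stromal libraries had few reads of the gene. Their counts were 190, 1 and 1 at 5 mM glucose, 92, 27 and 1376 at 50 mM glucose, 2, 74 and 0 with vehicle, 0, 0 and 12 with 1 ng/mL and 45, 0 and 35 with 10 ng/mL insulin. The stromal libraries of replicate 1 at 5 mM (12.4 CPM) and replicate 3 at 50 mM glucose (95 CPM) overlapped the epithelial libraries of their condition, and in the insulin experiment no stromal library overlapped an epithelial one of its condition.

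The fitted log2 fold change of MMP13, epithelial over stromal, was 5.77 ± 1.72, 2.12 ± 0.481, 6.10 ± 1.21, 8.66 ± 0.37 and 5.33 ± 1.16 (± SE) at 5 mM glucose, 50 mM glucose, vehicle, 1 ng/mL and 10 ng/mL insulin. It was called in all but the 5 mM comparison, with edgeR adjusted p of 0.041, 0.0127, 6.21e-05 and 0.0171 and of 0.0649 at 5 mM. Over the alternatives the fitted change ran from 4.66 to 10.30 with vehicle and from 8.31 to 12.0 with 1 ng/mL insulin. At 1 ng/mL the stromal counts were 0, 0 and 12, and the SE of 0.37 does not cover the choice of fit. At 50 mM glucose, where the stromal library with 60.2% of the epithelial marker level takes part, the change was 2.87 without replicate 3. Over the alternatives it ran from 1.15 (no replicate block, edgeR adjusted p = 0.645) to that value, and 5 of 8 made the call, which was lost without the block, in a fit of all glucose libraries and without replicate 1. At 5 mM the difference was called in 4 of 8 alternatives.

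MMP1 (interstitial collagenase) followed the same direction in the insulin experiment. With vehicle the epithelial libraries held 11, 12.9 and 28.8 CPM and the stromal libraries 0.35, 5.07 and 1.19 CPM. The groups did not overlap, and the log2 fold change of 3.09 ± 0.775 was called (edgeR adjusted p = 0.0253). With 1 ng/mL insulin the values were 12.2, 17.9 and 27.4 CPM for epithelial and 0.37, 1.44 and 0.807 CPM for stromal libraries, a called log2 fold change of 4.33 ± 0.329 (edgeR adjusted p = 0.000303). At 10 ng/mL the groups again did not overlap, but the log2 fold change of 3.03 ± 1.17 was not called (edgeR adjusted p = 0.0846). In the glucose experiment MMP1 was as high in stromal as in epithelial libraries in part of the replicates: stromal cells at 5 mM glucose held 117, 2.33 and 7.02 CPM and epithelial cells 85.8, 4.22 and 39.7 CPM. Replicate 1 was the highest in both cell types at 5 mM, and the cell types overlapped at both glucose levels (log2 fold changes of 0.74 ± 0.62 and 0.75 ± 0.407).

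Of the stromelysins, MMP3 (stromelysin-1) cuts proteoglycans and fibronectin and activates other pro-MMPs. It ranged over 17.9 to 785 CPM (median 200.3) in the 6 epithelial glucose libraries and 78.2 to 1635 CPM (median 418) in the 6 stromal ones. In the insulin experiment it ranged over 7.23 to 127 CPM (median 20.9) in 9 epithelial and 29.5 to 159 CPM (median 96.8) in 9 stromal libraries. The stromal member of a replicate pair was the higher one in every pair except replicate 3 at 10 ng/mL insulin, but the groups overlapped in all 5 conditions. The log2 fold change, epithelial over stromal, was -1.62 ± 0.385 and called at 5 mM glucose (edgeR adjusted p = 0.0318), and between -1.62 and -1.05 without a call in the other 4 conditions. The call at 5 mM was lost without the replicate block (edgeR adjusted p = 0.522), in a fit of all glucose libraries and without replicate 3 (edgeR adjusted p = 0.0559 and 0.0804).

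MMP11 (stromelysin-3), which is cut by furin inside the cell and so leaves it in active form, had 31 to 212 counts per library over both cell types. Levels were 3.07 to 13.9 CPM over 15 epithelial and 3.56 to 14.6 CPM over 15 stromal libraries. Its log2 fold change between the cell types lay between -0.66 and 0.10 and passed in none of the 5 comparisons. At 10 ng/mL insulin the groups did not overlap (5.68, 3.51 and 5.04 CPM for epithelial and 6.96, 6.23 and 7.59 CPM for stromal libraries), and the difference of -0.66 ± 0.227 had an edgeR adjusted p of 0.0621.

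Of the gelatinases, which digest denatured collagen and basement membrane type IV collagen, MMP2 was a stromal and MMP9 an epithelial transcript. MMP2 was 464, 119 and 197 CPM for epithelial and 3856, 2960.2 and 4207 CPM for stromal libraries at 5 mM glucose. At 50 mM glucose the values were 458, 405 and 317 CPM and 3817, 2904 and 1845 CPM. With vehicle they were 191, 44.4 and 409 CPM and 2708, 3621 and 3775 CPM. The lowest stromal library, replicate 3 at 50 mM glucose, was still above the highest epithelial one. The 6 epithelial libraries with 1 or 10 ng/mL insulin held 224, 56.7 and 392 CPM and 168, 58.5 and 396 CPM, and the stromal ones 2914, 3912 and 3798 CPM and 2684, 4232 and 3873 CPM. The log2 fold change, epithelial over stromal, was -4.26 ± 0.501, -2.97 ± 0.243, -4.47 ± 0.747, -4.42 ± 0.625 and -4.55 ± 0.683 in the 5 conditions in the order above, with edgeR adjusted p from 0.00233 to 0.00771.

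MMP9 had few counts in both cell types. Epithelial libraries held 28.7, 4.97 and 2.47 CPM at 5 mM glucose, 15.4, 4.02 and 2.74 CPM at 50 mM glucose and 2.35, 3.41 and 6.66 CPM with vehicle. Stromal counts were 72, 0 and 4, 92, 14 and 92 and 0, 6 and 0 in the same conditions and at most 7 in the 6 libraries with insulin, so that MMP9 was not tested for insulin in stromal cells. The cell types did not overlap in the insulin experiment. MMP9 was called higher in epithelial cells at 5 mM glucose (log2 fold change 3.48 ± 0.92, edgeR adjusted p = 0.0449), with vehicle (4.27 ± 0.917), with 1 ng/mL (4.13 ± 0.53) and with 10 ng/mL insulin (3.22 ± 0.694). At 50 mM glucose the difference was 0.58 ± 0.647 and was not called, and it was 1.47 with an edgeR adjusted p of 0.0345 without replicate 3.

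MMP14, the membrane-type MMP that cuts collagen at the cell surface and activates pro-MMP2 in a complex with TIMP2, had the narrowest spread of the MMP genes. In stromal libraries it was 511, 441 and 502 CPM at 5 mM glucose, 422, 364 and 299 CPM at 50 mM glucose and 300.2 to 357 CPM in the 9 insulin libraries. Epithelial libraries held 163, 231 and 163 CPM, 123, 168 and 175 CPM and 112 to 147 CPM. No epithelial library reached a stromal one. The log2 fold change was -1.62 ± 0.363, -1.37 ± 0.275, -1.37 ± 0.135, -1.38 ± 0.139 and -1.51 ± 0.149 in the 5 conditions, with edgeR adjusted p from 0.000752 to 0.0313, and at 5 mM glucose the call was lost without replicate 1 or without replicate 3. RBM23 overlaps MMP14 in the RefSeq annotation of ARS-UCD2.0 and had counts of 198 to 699 per library. The strand setting of the counting is not given in the sources used here, so reads of overlapping genes may not be separable.

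TIMP2, the inhibitor that takes part in pro-MMP2 activation by MMP14, was 47.9, 33.5 and 28.8 CPM for epithelial and 232, 171 and 197 CPM for stromal libraries at 5 mM glucose. At 50 mM glucose it was 43.4, 37.8 and 30 CPM and 226, 178 and 98.9 CPM. In the insulin experiment it ranged over 19 to 33.7 CPM (median 27.2) in epithelial and 156 to 257 CPM (median 191) in stromal libraries. Stromal libraries were higher throughout, the nearest being replicate 3 at 50 mM glucose. The log2 fold change was -2.68 ± 0.331, -2.27 ± 0.219, -3.11 ± 0.116, -3.03 ± 0.147 and -2.94 ± 0.135 in the 5 conditions, with edgeR adjusted p from 8.57e-05 to 0.00613. CEP295NL overlaps TIMP2 in the RefSeq annotation, and its counts are not given here.

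TIMP3, the TIMP that is bound to the matrix and also blocks several ADAM proteases, was 131, 238 and 367 CPM for epithelial and 1136, 895 and 1404 CPM for stromal libraries at 5 mM glucose, and 239.8, 223 and 426 CPM and 1423, 767 and 878 CPM at 50 mM glucose. With vehicle the values were 364, 517 and 304 CPM and 2816, 3277 and 3209 CPM. The cell types did not overlap in any condition, and the log2 fold change was -2.53 ± 0.435, -1.95 ± 0.368, -3.08 ± 0.229, -3.14 ± 0.214 and -3.04 ± 0.195 in the 5 conditions (edgeR adjusted p from 0.000222 to 0.0266). Stromal TIMP3 also lay apart in the experiments, at 2816 to 3514 CPM (median 3150.3) in the 9 insulin libraries and 767 to 1423 CPM (median 1016) in the 6 glucose libraries. Those ranges did not overlap, which held for no other transcript of the set in either cell type. The share of all genes whose ranges lie apart between the experiments is not given here. The difference was not tested, since the experiments share no library. SYN3, which overlaps TIMP3 in the RefSeq annotation, had counts of 0 to 7 per library.

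**Figure D2:**
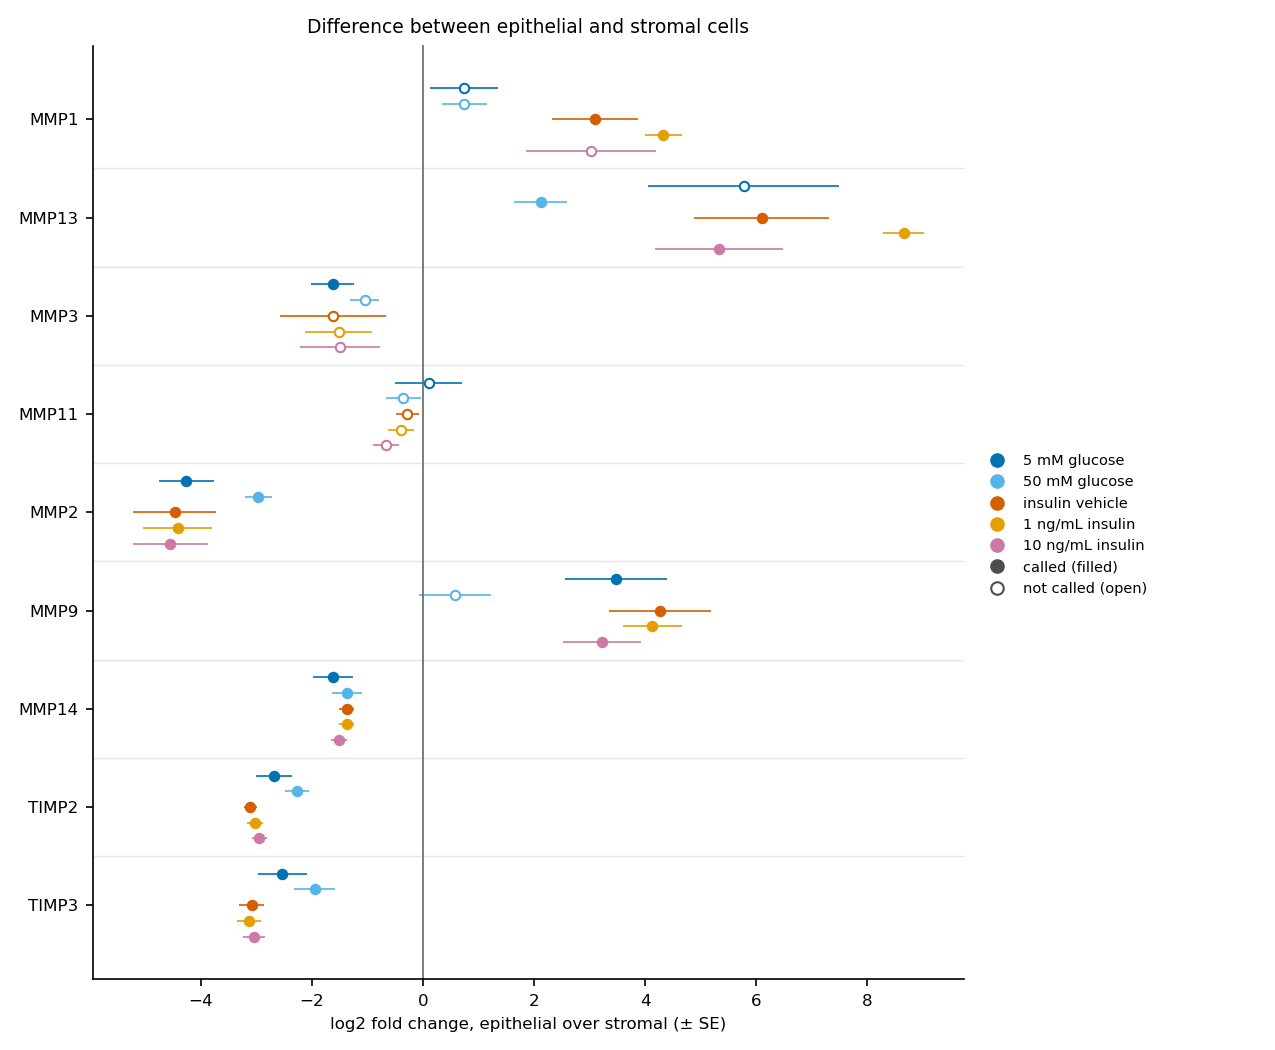
Log2 fold change of each transcript, epithelial over stromal cells, in the 5 conditions, with its SE, derived from the F statistic, as a bar. Filled points passed an adjusted p under 0.05 in edgeR's quasi-likelihood test and open points did not. MMP2, MMP14, TIMP2 and TIMP3 are filled and left of 0 in all 5 conditions, and MMP13 and MMP9 are filled and right of 0 in 4 of 5.

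The lower of both cell types was set beside the markers of the other. MMP2 in the 15 epithelial libraries was 1.32% to 12.6% of its stromal control mean, where the median stromal marker was 1.87% to 13.1%, and MMP2 was above the marker level in 9 of 15 libraries. In the vehicle epithelial libraries MMP2 was 5.67%, 1.32% and 12.1% and the markers were 5.93%, 1.87% and 10.7%. The level of MMP2 in epithelial libraries thus moved with that of the stromal markers, whose part in it was not tested. MMP14 and TIMP2 lay above the marker level in 15 of 15 epithelial libraries, at 25.4% to 47.7% and 9.63% to 24% of their stromal control means. TIMP3 lay above it in 11 of 15, at 9.28% to 37.2%.

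MMP13 in stromal libraries was for the most part higher where the epithelial markers were higher. The 6 stromal libraries with the highest epithelial marker level (3.51% to 60.2%) held 27 to 1376 counts of MMP13, and the other 9 (0% to 0.358%) held 0 to 35. These ranges overlapped: replicate 3 at 10 ng/mL insulin held 3.36 CPM at 0.358%, and replicate 2 at 50 mM glucose 1.84 CPM at 4.95%. The highest of both measures fell in the same library, replicate 3 at 50 mM glucose, with MMP13 at 137% of the epithelial control mean. MMP13 was above the marker level in 7 of 15 stromal libraries and MMP9 in 8 of 15, and the part of the epithelial markers in either was not tested. These tallies include libraries with very few reads, with counts of 1 and 2 for MMP13 and of 1 to 7 for MMP9. MMP1 in stromal cells behaved otherwise in replicate 1 at 5 mM glucose, where it stood at 270.2% of the epithelial control mean in a library with 6.96% of the epithelial marker level. MMP1 was above the marker level in 13 of 15 stromal libraries, with counts down to 3, and MMP3 in 15 of 15.

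Markers of other cells that a culture of endometrium could hold were also summed. The 7 leukocyte markers counted here, of 12 listed, summed to 3.85 to 20.5 CPM per library. CD14 (up to 14.3 CPM) and CD68 were above 0 in 30 of 30 libraries and CSF1R, LAPTM5 and CORO1A in 15 of 15 stromal ones, while AIF1 was above 0 in 15 of 15 epithelial and at 0 in 11 of 15 stromal libraries and CD53 at 0 in 1 of 15 and 12 of 15. The 9 endothelial markers counted summed to 3.47 to 29.8 CPM in stromal and 26.7 to 108 CPM in epithelial libraries. VWF and EMCN held most of the epithelial sum, with medians of 25.4 and 12.8 CPM there and 2.63 and 1.05 CPM in stromal libraries. CDH5 and TEK went the other way: CDH5 was at 0 in 10 of 15 epithelial and no stromal libraries, and TEK had medians of 0.371 and 1.29 CPM. PECAM1, TIE1, CLDN5, ESAM and ROBO4 had medians of at most 0.734 CPM in both cell types. Smooth muscle and pericyte markers summed to 1441 to 8632 CPM in stromal and 63.8 to 736 CPM in epithelial libraries. Their sum thus moved with MMP2, MMP14, TIMP2 and TIMP3 between the cell types. Of 8 markers tested, 6 to 7 were called higher in stromal cells per condition, and 1 had a log2 fold change above 0. NOTCH3 had a higher median in epithelial (45.8 CPM) than in stromal libraries (34.0 CPM), and RGS5 was low in both (0.351 and 0.646 CPM). The part of these markers in the difference of the 4 transcripts was not tested.

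**Figure D3:**
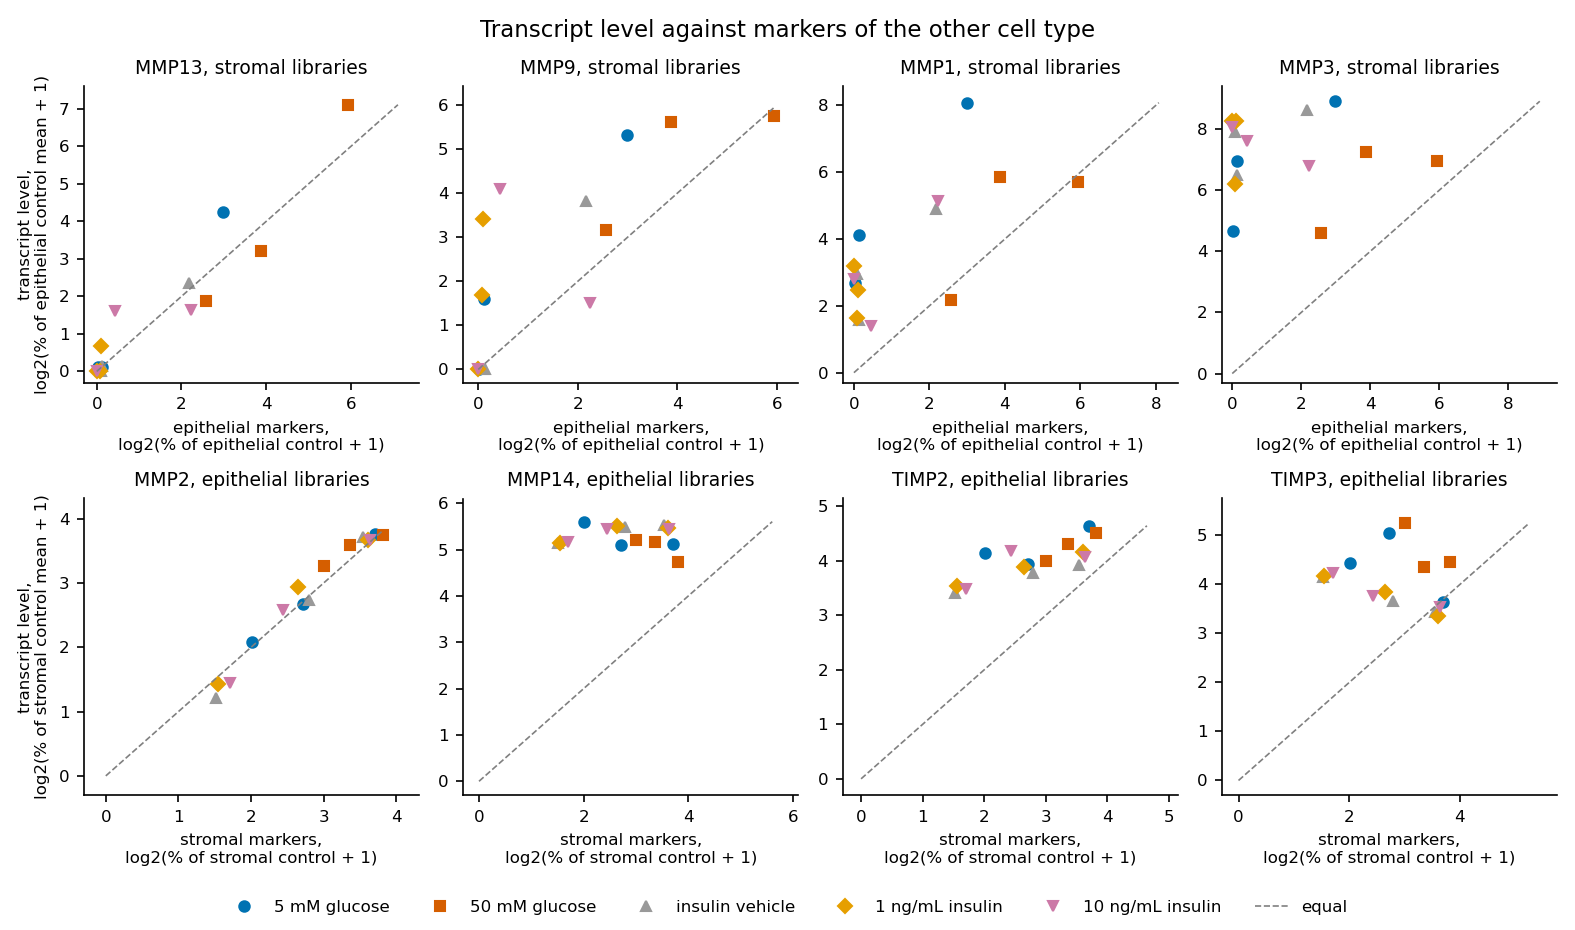
Level of a transcript against the median level of the markers of the other cell type, both in percent of that cell type's control and drawn as log2(% + 1). The upper row shows 15 stromal libraries against 21 epithelial markers, the lower row 15 epithelial libraries against 20 stromal markers, and the dashed line marks equal values. MMP2 in epithelial libraries lies along the dashed line, MMP14 and TIMP2 lie above it in 15 of 15 libraries, and MMP13 in stromal libraries is highest in the library with 60.2% of the epithelial marker level.

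Whether a high glucose concentration altered the transcripts was asked in each cell type. In epithelial cells none of the 9 passed with 50 mM glucose against 5 mM glucose by edgeR or DESeq2, and none passed the unadjusted threshold, where 0% of protein-coding genes were called and 1.54% passed the unadjusted threshold. The log2 fold changes ran from -0.38 for MMP1 to 0.81 ± 0.36 for MMP2, with a median of -0.04 against 0.01 for all protein-coding genes. MMP2 was at about the same level in replicate 1 (464 and 458 CPM) and higher at 50 mM in replicates 2 and 3, and the 19 stromal markers tested had a median log2 fold change of 0.71 in the same comparison. The part of these markers in the MMP2 value was not tested. Without replicate 2, whose 5 mM library stood apart, 218 of 13218 protein-coding genes and 1 transcript of the set were called, TIMP3 with a log2 fold change of 0.57 (edgeR adjusted p = 0.0345).

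In stromal cells none of the 9 transcripts was called with 50 mM glucose by edgeR or DESeq2, and 1 passed the unadjusted threshold, where edgeR called 0% of protein-coding genes, DESeq2 called 173 of 13035, and by edgeR 4.96% passed the unadjusted threshold. That transcript was MMP14, which was lower at 50 mM in 3 of 3 pairs with no overlap of the groups (log2 fold change -0.50 ± 0.175, edgeR adjusted p = 0.696). MMP2 was lower in 3 of 3 pairs (-0.47 ± 0.339), and MMP9 was higher in 3 of 3 (2.43 ± 1.13), both without a call. The largest value was that of MMP13, at 3.33 ± 2.82, an error almost as large as the change. In this comparison the 20 epithelial markers tested had a median log2 fold change of 4.49 and the 20 stromal markers one of -0.53, and their part in the values of MMP13, MMP9, MMP2 and MMP14 was not tested. Without replicate 3, whose 50 mM library stood apart, the log2 fold change was -0.31 for MMP14, -0.05 for MMP2, 0.85 for MMP9 and -0.19 for MMP13, and none was called.

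Insulin was compared with vehicle at both doses and between the doses, so that these comparisons share libraries. In epithelial cells MMP13 fell with 10 ng/mL insulin, from 21.7, 123 and 342 CPM to 21.2, 95.5 and 277 CPM in replicates 1, 2 and 3. It was lower in 3 of 3 pairs, by little in replicate 1, and the groups overlapped. The log2 fold change was -0.29 ± 0.0513 (edgeR adjusted p = 0.00468), and MMP13 was the 1 of 9 transcripts called, where 0.113% of protein-coding genes were called. The study had already named MMP13 among the transcripts altered in this comparison of the same libraries. Since the set was chosen with earlier results known, its share of calls is no independent support. The direction held in 8 of 8 alternatives, with values from -0.32 to -0.25, but the call was made in 4 of them. It was lost without the replicate block, in DESeq2, in a fit of all insulin libraries and without replicate 3, with adjusted p from 0.365 to 1. Without the replicate block the change was -0.30 with an SE of 1.08. In the same comparison the median log2 fold change was -0.01 for the 21 epithelial, -0.12 for the 18 stromal and -0.21 for the 8 smooth muscle and pericyte markers tested. Their part in the MMP13 value was not tested.

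With 1 ng/mL insulin epithelial MMP13 was again lower in 3 of 3 pairs, at 14.5, 76.5 and 339 CPM, and the log2 fold change of -0.33 ± 0.0897 was not called (unadjusted p = 0.00143 in edgeR's quasi-likelihood fit). None of the 9 transcripts was called at 1 ng/mL by edgeR or DESeq2, where 0% of protein-coding genes were called. The unadjusted threshold was passed by 3 of 9 (MMP2, MMP13 and TIMP2), against 2.85% of protein-coding genes. Over 8 alternatives the MMP13 change ran from -0.67 to -0.11 and was called in 3. These were the fits without replicate 3 (-0.67, edgeR adjusted p = 4.43e-07), without replicate 1 (-0.28, edgeR adjusted p = 0.00366) and with low counts kept (-0.33, edgeR adjusted p = 5.17e-05).

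At 10 ng/mL the other epithelial transcripts were not called. MMP9 was lower in 3 of 3 pairs, 1.45, 1.47 and 3.88 CPM against 2.35, 3.41 and 6.66 CPM with vehicle, with a log2 fold change of -0.86 ± 0.228 (edgeR adjusted p = 0.193). It was called when genes with low counts were kept (edgeR adjusted p = 0.0418). TIMP2 and TIMP3 were higher in 3 of 3 pairs, with log2 fold changes of 0.22 ± 0.0843 and 0.10 ± 0.0386 (edgeR adjusted p = 0.574 and 0.645). MMP3 was 7.24, 22 and 127 CPM against 20.9, 7.23 and 92.5 CPM, lower in replicate 1 and higher in replicates 2 and 3. Without replicate 1 its log2 fold change of 0.66 was called (edgeR adjusted p = 1.38e-13). That fit leaves out the pair that went the other way and rests on 2 pairs. The unadjusted threshold was passed by 3 of 9 transcripts and 6.32% of protein-coding genes. Between 10 and 1 ng/mL none of the 9 was called by edgeR or DESeq2 and none passed the unadjusted threshold, where the shares of all protein-coding genes were 0% called and 4.06% past the unadjusted threshold.

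In stromal cells no transcript tested was called with insulin by edgeR or DESeq2. With 1 ng/mL insulin 7 of the 9 could be tested and 1 passed the unadjusted threshold, where 0% of protein-coding genes were called and 5.03% passed the unadjusted threshold. That transcript was MMP1, at 4, 17 and 10 counts against 4, 56 and 11 with vehicle, a log2 fold change of -1.21 ± 0.386 (edgeR adjusted p = 0.87) in which replicate 2 held most of the counts. Without replicate 2 MMP1 did not pass the filter on low counts. With 10 ng/mL 8 of the 9 were tested and none passed the unadjusted threshold, against 0% of protein-coding genes called and 2.73% past the unadjusted threshold. The MMP13 counts moved in opposite directions there, from 74 to 0 in replicate 2 and from 2 to 45 and 0 to 35 in replicates 1 and 3, and the log2 fold change was 0.71 ± 1.54. Without replicate 2, the pair that went the other way, it was 4.98 and called on the 2 pairs left (edgeR adjusted p = 0.000245). The epithelial markers stood at 3.51% and 0% in the replicate 2 libraries and at 0.0914% and 3.71% in those of replicate 1, and stayed low in replicate 3 (0.0669% and 0.358%), where MMP13 went from 0 to 35 counts. Their part was not tested.

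Between 10 and 1 ng/mL 8 of the 9 stromal transcripts were tested, none was called by edgeR or DESeq2, and 1 passed the unadjusted threshold. All protein-coding genes gave 0.0244% called and 3.68% past the unadjusted threshold. The transcript was MMP13 again (2.74 ± 0.635, edgeR adjusted p = 0.531), on counts of 0, 0 and 12 and 45, 0 and 35. The 6 epithelial markers tested had a median log2 fold change of 1.81 in the same libraries, and their part was not tested. The transcripts higher in stromal cells had log2 fold changes of -0.06 to 0.10 for MMP2, MMP14, TIMP2 and TIMP3 over the 3 stromal insulin comparisons and SE of at most 0.072.

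**Figure D4:**
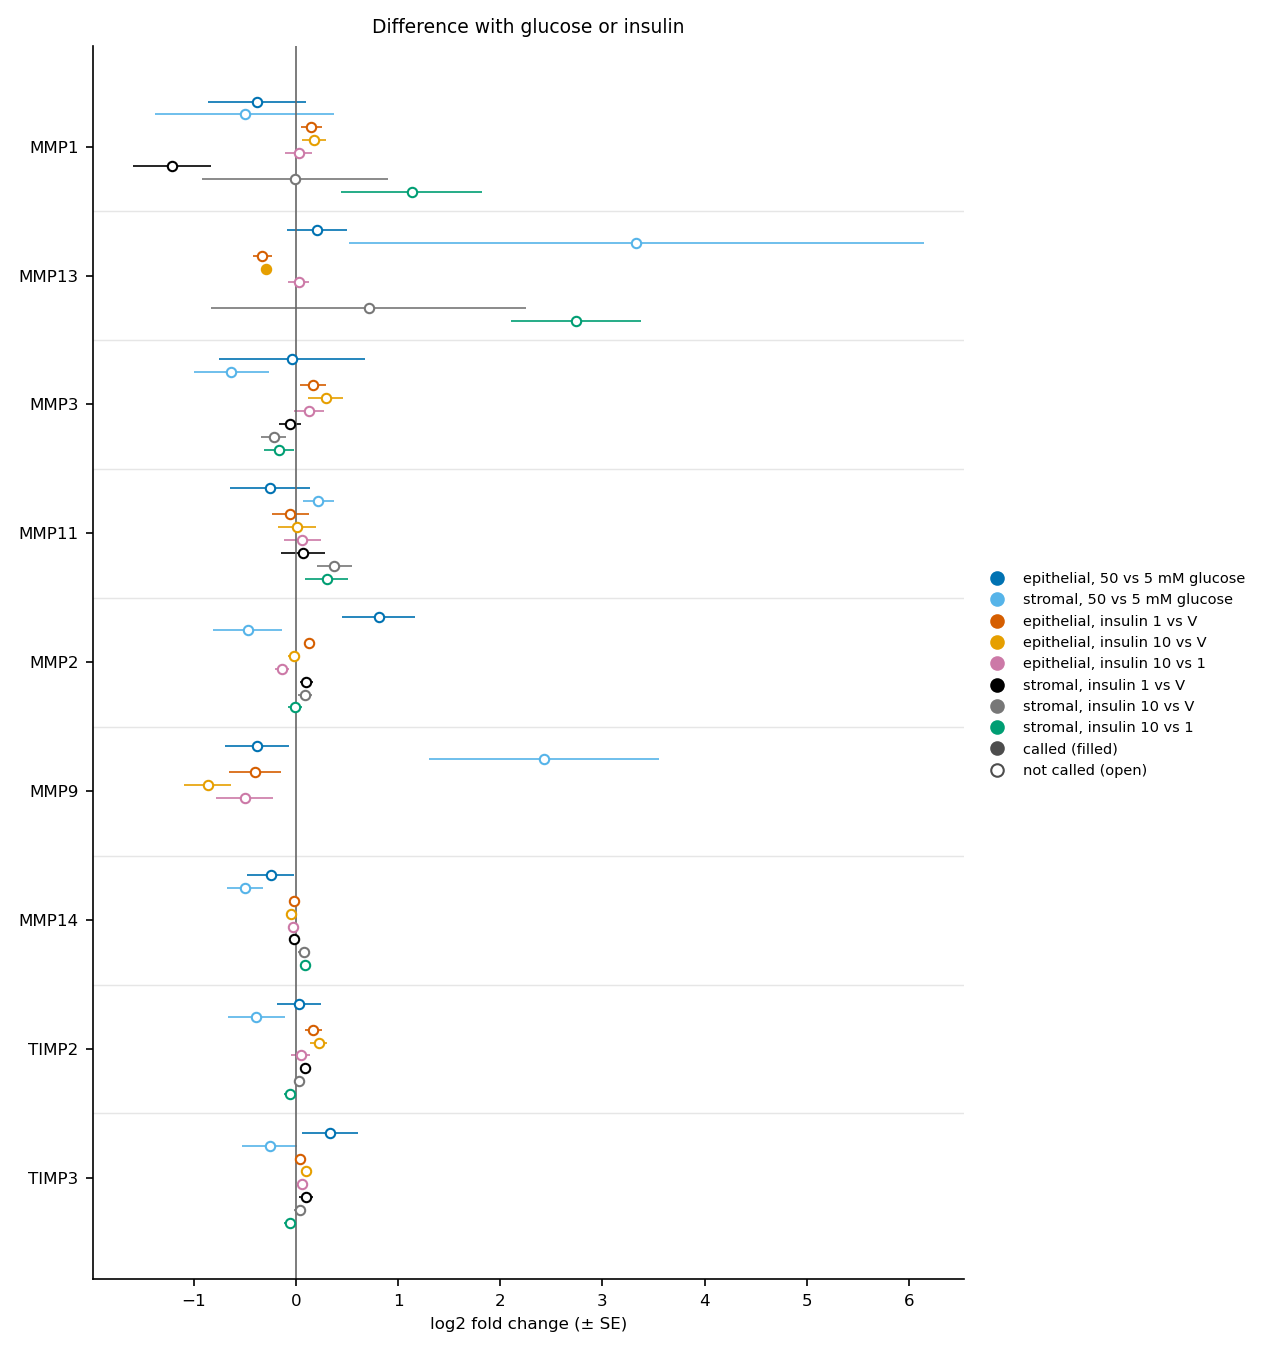
Log2 fold change of each transcript with glucose or insulin in the 8 comparisons within a cell type, with its SE, derived from the F statistic, as a bar. The filled point passed an adjusted p under 0.05 in edgeR's quasi-likelihood test, and a transcript that was not tested has no point. The single filled point is MMP13 in epithelial cells with 10 ng/mL insulin, at -0.29, and the widest bars are those of MMP13 and MMP9 in stromal cells.

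The difference between the cell types in the response itself was tested as an interaction, and none of the 9 transcripts passed in any of the 4 tests by edgeR or DESeq2. Shares of all genes are edgeR's where DESeq2 is not named. The smallest edgeR adjusted p was 0.111, for MMP1 with 1 ng/mL insulin, with a difference of 1.48 ± 0.371, epithelial minus stromal. For 50 against 5 mM glucose 1 of 9 passed the unadjusted threshold, where edgeR called 0% of protein-coding genes, DESeq2 called 246 of 13851, and by edgeR 7.65% passed the unadjusted threshold. For 1 ng/mL insulin against vehicle 2 of 9 did, against 0.659% and 6.69%. For 10 ng/mL against vehicle none of 9 did, against 0% and 4.05%, and for 10 against 1 ng/mL 1 of 9 did, against 0.728% and 6.6%. For MMP13 and 10 ng/mL insulin the difference was -0.29 ± 1.13, so that its change in epithelial cells was not shown to differ from that in stromal cells.

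The spread between replicates was set beside that between doses. As a description, the sum of squares of log2(CPM + 1) within a cell type and experiment was split into parts for the replicate number, the dose and the rest. In epithelial cells the replicate number took the largest part for 9 of 9 transcripts in both experiments, with a median of 80.2% over the 9 in the glucose and 89% in the insulin experiment. The dose took a median of 2.09% and 1.16%. For epithelial MMP13 the replicate number took 96.4% and 98.1%, and within the insulin experiment its lowest and highest epithelial library differed by 23.6 times. In stromal cells the replicate number took the largest part for 6 of 9 transcripts in the glucose and 5 of 9 in the insulin experiment. The dose took the largest part for 1 transcript in each, MMP14, at 65.1% and 46.8%, and in the insulin experiment its whole range in stromal cells was 300.2 to 357 CPM.

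**Figure D5:**
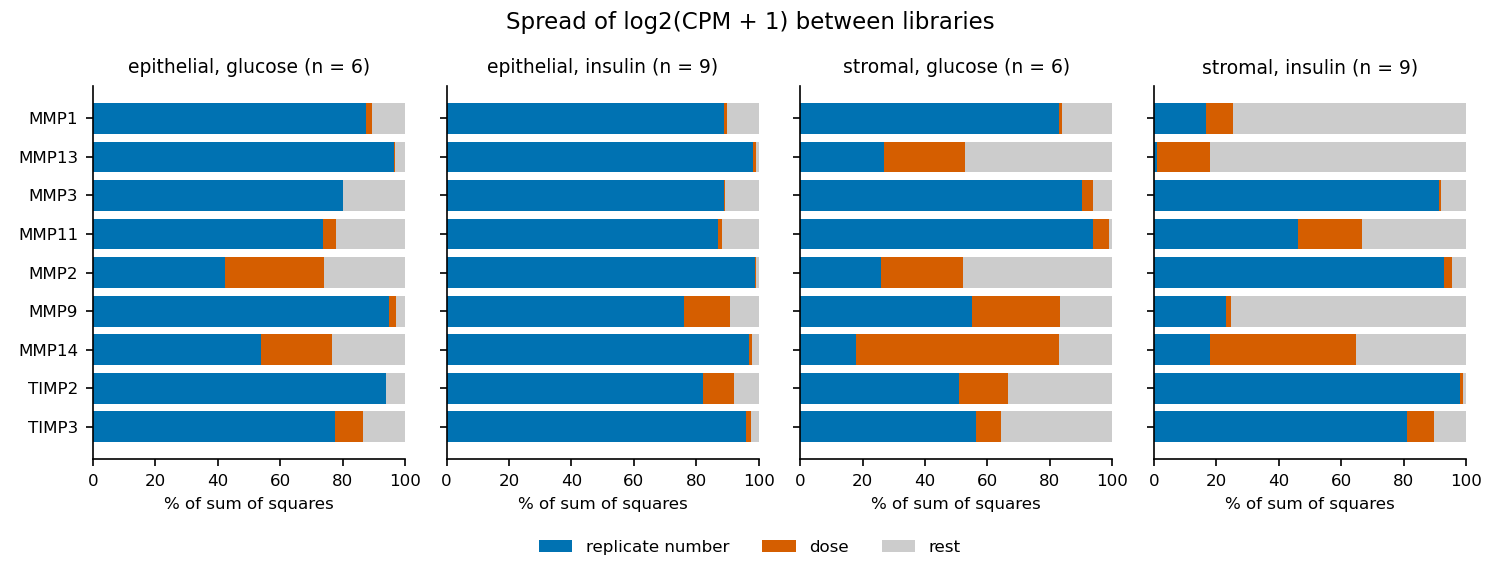
Share of the spread of log2(CPM + 1) between libraries that goes with the replicate number, the dose or neither, for each transcript, as percent of the sum of squares. Each panel is 1 cell type in 1 experiment, with 6 or 9 libraries. The part of the replicate number is the largest for 9 of 9 transcripts in both epithelial panels, and stromal MMP14 is the transcript with the largest part for the dose in both stromal panels.

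MMP13, MMP12, MMP3 and MMP1 are consecutive protein-coding genes in the RefSeq annotation of ARS-UCD2.0. Over epithelial libraries the levels of MMP1 and MMP3 had a Pearson r of 0.97 (6 glucose libraries) and 0.89 (9 insulin libraries), and those of MMP1 and MMP13 one of 0.84 and 0.88. Over stromal libraries MMP1 and MMP3 had an r of 0.96 in the glucose and 0.27 in the insulin experiment, and MMP1 and MMP13 0.63 and 0.61. These values describe libraries that share replicate numbers, 2 or 3 doses and, in stromal cells, the epithelial marker level. MMP12, the other gene of the row, was at 0.227 to 10.8 CPM for epithelial and 0.0629 to 12.9 CPM for stromal libraries.

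A list of 33 further genes held the other MMPs, TIMP4 and proteins that switch on, clear or block MMPs, and 30 of them were counted here. None was called in any of the 8 glucose and insulin comparisons within a cell type by edgeR, where 0% to 0.113% of protein-coding genes were called. Before adjustment 0 to 5 of the 18 to 24 tested had an edgeR p under 0.05, whatever their fold change. The share of all genes at this limit is not given here. With the limit on the fold change it was 1.54% to 6.32% of protein-coding genes, so the counts cannot be read against it directly. Between the cell types 2 to 6 were called with the epithelial and 9 to 12 with the stromal side higher, of 21 to 24 tested, where 17.6% (50 mM glucose) to 59.4% (1 ng/mL insulin) of all protein-coding genes were called, with a median log2 fold change of the list between -1.48 and -0.57. Those called in the same direction under all 5 conditions and higher in stromal cells included MMP19, a secreted MMP (log2 fold changes, epithelial over stromal, of -5.33 to -3.39), MMP23 (-4.62 to -3.77), RECK, a membrane-anchored MMP inhibitor (-4.68 to -3.13), PCSK5, a proprotein convertase (-5.19 to -3.43), and LRP1, an endocytic receptor that clears MMPs (-2.46 to -1.58). Higher in epithelial cells throughout were PLAU, the urokinase that makes plasmin (1.62 to 4.80), and MMP15, a membrane-type MMP (2.01 to 3.82). MMP7 (matrilysin), an epithelial MMP, had 76.1 to 885 CPM for epithelial and 0.370 to 328 CPM for stromal libraries and was called higher in epithelial cells in 4 of 5 conditions. Its response to 1 ng/mL insulin against vehicle differed between the cell types (4.15 ± 0.535, epithelial minus stromal, edgeR adjusted p = 0.000804), as did that of SERPINB2, an inhibitor of urokinase (6.66 ± 0.946, edgeR adjusted p = 0.00275). In that test 15 of 21 epithelial markers were also called in the same direction, and their part in both was not tested. The stromal vehicle library of replicate 2 held 3.51% of the epithelial control for these markers, and replicates 1 and 3 held 0.0914% and 0.0669%. The stromal libraries with 1 ng/mL insulin held 0% to 0.0752%. SERPINB2 was called in the opposite direction for 10 against 1 ng/mL (-5.91 ± 1.13, edgeR adjusted p = 0.0329), where 15 of 21 epithelial markers were called in that direction too. Without the replicate block 0 of 13357 and 0 of 13323 protein-coding genes were called in these 2 interaction tests, so that the MMP7 and SERPINB2 calls were lost. Without replicate 2 the first test gave 2 calls in all, and which genes these were is not given here.

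Of 14 transcription factors known to act at MMP promoters (the AP-1, ETS and RUNX factors and CEBPB), 1 was called in a glucose or insulin comparison by edgeR. Of all protein-coding genes 0% to 0.113% were called per comparison. Before adjustment 0 to 4 of the 13 to 14 tested had an edgeR p under 0.05, whatever their fold change. The 4 were in epithelial cells with 10 ng/mL insulin, and the share of all genes at this limit is not given here. CEBPB, a bZIP factor of inflammatory and hormone-driven transcription, rose in epithelial cells with 10 ng/mL insulin (log2 fold change 0.67 ± 0.097, edgeR adjusted p = 0.000344), the comparison in which MMP13 fell. The study had named both CEBPB and MMP13 among the transcripts altered there, and the gene list was chosen with earlier results known. No gene was called in this comparison without the replicate block, with DESeq2 or in a fit of all insulin libraries, so that the CEBPB call was lost in these. The AP-1 genes FOS, FOSB, FOSL1, FOSL2, JUN, JUNB and JUND passed in none of the 8 comparisons. Between the cell types 0 to 6 of the 14 factors were called with the epithelial and 1 to 3 with the stromal side higher, against the same 17.6% to 59.4% of all protein-coding genes in both directions. RUNX2, a factor of skeletal and collagenase gene transcription, was called higher in stromal cells in all 5 conditions (-3.45 to -2.09).

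For each transcript the genes with the most similar levels over all 30 libraries were found among 14539 genes, as a description over libraries that differ in cell type, experiment and replicate. MMP2 was most like PDGFRB (Pearson r = 0.995), ADAMTS2 (0.994) and COL12A1 (0.993), and MMP14 like COL4A2 (0.978), COL15A1 (0.976) and COL4A1 (0.973). TIMP2 was most like NTNG2 (0.989), GNA14 (0.988) and WFDC1 (0.988), and TIMP3 like SPART (0.962), KCNB2 (0.954) and ZNF365 (0.953). MMP13 was most like VAV1 (0.965), MUC13 (0.956) and SEL1L3 (0.952), and MMP9 like GPRIN3 (0.928), CSF2 (0.908) and SLC7A2 (0.906). MMP1 was most like a gene without a symbol, ENSBTAG00000015818 (0.992), then TOP1 (0.918) and TNFAIP3 (0.883). MMP3 was most like ALOX12 (0.858), PDE4D (0.851) and BRD2 (0.839), and MMP11 like NLGN2 (0.879), WDR54 (0.833) and ENSBTAG00000048526 (0.815), the lowest values of the set.

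Over the 10 groups the order of mean levels had few steps without overlap of the libraries. The share of all genes with such a step is not given here. For MMP2 and TIMP2 the one step between neighbours whose libraries did not overlap was that from the lowest stromal group (50 mM glucose, 2855 ± 987 and 167 ± 64.2 CPM, mean ± SD, n = 3) to the highest epithelial group (50 mM glucose, 393 ± 71.4 and 37 ± 6.72 CPM). MMP14 had a further step between stromal cells at 5 mM (485 ± 38.2 CPM) and 50 mM glucose (362 ± 61.5 CPM). That difference was not called (log2 fold change -0.50, edgeR adjusted p = 0.696) and was -0.31 without replicate 3. TIMP3 had a further step between the stromal insulin groups (3101 ± 249 CPM for the lowest of them, vehicle) and the stromal glucose groups (1145 ± 254 CPM for the highest, 5 mM). MMP1, MMP3, MMP9, MMP11 and MMP13 had no such step between neighbours. The highest group mean of MMP13 was in epithelial cells with vehicle (162 ± 164 CPM) and the lowest in stromal cells with 1 ng/mL insulin (0.323 ± 0.559 CPM). MMP3 was highest in stromal cells at 5 mM glucose (711 ± 817 CPM) and lowest in epithelial cells with vehicle (40.2 ± 45.8 CPM). MMP1 and MMP9 were highest in the epithelial 5 mM group (43.2 ± 40.9 and 12.1 ± 14.5 CPM) and lowest in stromal cells with 1 ng/mL insulin (0.873 ± 0.538 and 0.165 ± 0.211 CPM).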

How the data were processed

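Total RNA of epithelial and stromal cells was made into stranded single-end libraries by the authors, who trimmed the reads with Cutadapt and FASTX, aligned them with Rsubread to the Ensembl release 96 cow genome, keeping unique alignments, and counted them per gene with featureCounts. The deposited raw counts per gene were used here as they stand, and the gene names and gene types, the other columns used, came from the deposited tables of the authors' own comparisons, whose fold changes and p-values were not used. The members and gene lists were chosen with earlier results of these data known, and named genes of the lists were those called in the same direction in all 5 cell type comparisons or called in a treatment comparison, and for each member the 3 genes most like it in level; MMP7, MMP12, SERPINB2 and the AP-1 genes without a call were added after their values were seen. A further gene of the lists that met the rule is not reported here.

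Counts were scaled by TMM factors, filtered with filterByExpr and fitted in edgeR 4.0.16 (R 4.3.3) with the replicate number as a block, as in the paired design of the study. Adjusted p-values came from all genes tested, background shares from protein-coding genes. Interactions were fitted over both cell types. Scripts were tested on simulated counts. Alternatives were DESeq2 1.42.0 size factors, no filter on low counts, no block, the DESeq2 Wald test, a fit of all libraries of an experiment and leaving out each replicate. Deviations of same-numbered libraries from their group means correlated at 0.137 to 0.770 in the treatment comparisons, except for pair 2 of stromal 10 ng/mL insulin against vehicle (-0.0373), and at 0.0390 to 0.518 between the cell types. No pair of replicates agreed within sampling noise. As the labels do not give the animals behind each library, p-values measure the spread between these libraries, and counting limits cover counting error only. Marker lists covered epithelial, stromal, leukocyte, endothelial and smooth muscle cells. No sequence is shown, since none was used here.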

Additional observations from a re-analysis of the deposited data

How the results depend on the processing

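Over the 8 alternatives per treatment comparison, 480 values of transcripts that were not called kept direction and side of the threshold, 42 changed sign without a call and 11 became called. For the 5 cell type comparisons, 229 of the values called remained called and 19 were lost, while 20 of the uncalled became called. No called value changed direction. With genes of low counts kept, the number of transcripts called was 1 for epithelial 1 ng/mL insulin against vehicle (18 of 15454 protein-coding genes), 2 for epithelial 10 ng/mL against vehicle (41 of 15439), 1 for stromal 10 against 1 ng/mL (138 of 15343), and 2 for the difference between cell types in both 1 ng/mL against vehicle (270 of 15639) and 10 against 1 ng/mL (284 of 15641). For epithelial 10 ng/mL against vehicle the count was 0 with no replicate block, 0 with DESeq2 and 0 in a fit of all insulin libraries, as was that of all genes. Without the replicate block no other count moved by more than 1.5 times.

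Leaving out each replicate in turn gave 0 to 1 transcripts called for epithelial 50 against 5 mM glucose (0 to 218 of all protein-coding genes), 0 to 2 for epithelial 1 ng/mL (4 to 27) and 0 to 2 for epithelial 10 ng/mL against vehicle (7 to 68), 0 to 1 for stromal 10 ng/mL against vehicle (0 to 75) and 0 to 1 for stromal 10 against 1 ng/mL (23 to 64). Between the cell types it gave 0 to 6 at 50 mM glucose (0 to 3785) and 4 to 7 with vehicle (5069 to 5642). For the difference between cell types it gave 0 to 2 for glucose (0 to 303), 0 to 2 for 1 ng/mL (2 to 153) and 0 to 2 for 10 ng/mL against vehicle (0 to 166) and 0 to 1 for 10 against 1 ng/mL (36 to 125). Leaving out a replicate leaves 2 pairs, and the cause of other moves was not tested. TMM scaling moved 1 of 90 group levels by more than 1 SD. At 3 replicates and with counts of 0 to 92 in stromal cells, changes of MMP9 could not be measured well. DESeq2 called 173 genes for stromal 50 against 5 mM glucose and 246 for its difference between the cell types, where edgeR called 0, none of them a transcript of the set.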
